A study of Mus musculus with 83 samples.

Results

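Sirtuins are enzymes that remove acetyl and other acyl groups from lysines of proteins and spend a molecule of NAD+ for each group removed, so that their activity is tied to the NAD+ supply of the cell. The mammalian family is divided by where its members reside. Sirt1, Sirt6 and Sirt7 work mainly in the nucleus, Sirt2 mainly in the cytosol, and Sirt3, Sirt4 and Sirt5 in mitochondria. In the intestine, sirtuins have been studied for their links to crypt stem cells, inflammation and the fuel use of the epithelium, and the family as a whole is among the most discussed in the biology of aging.

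All 7 family members, Sirt1 to Sirt7, were taken from the colon count table by their gene symbols, which were matched to Ensembl identifiers. The table listed 37764 genes, and each of the 7 passed the filter on low counts, as did 18325 genes in all. RNA had been extracted from the proximal section of the colon of 83 male mice of the inbred strain C57BL/6J/Ukj with no treatment named, and each mouse was 1 library. The mice were 3 mo (n = 16), 9 mo (n = 16), 15 mo (n = 16), 24 mo (n = 17) and 28 mo (n = 18) old, and every age was spread over 3 library batches with 4 to 7 mice per age and batch. All mice are male and of 1 inbred strain, the RNA is that of the tissue as a whole, and each mouse was measured at 1 age only. Because the study is about nonlinear courses of aging, each sirtuin was asked whether its transcript differed at all among the 5 ages, whether it followed a straight line in age, whether it departed from that line, and between which ages it differed.

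Between 23026370 and 75838290 read pairs were assigned to genes per library. Markers of epithelium (6 of 6) and of absorptive colonocytes (6 of 6) were expressed, whereas Lct, Apoa4 and Defa24, 3 of 5 markers of small intestine, were too low to be tested. A marker score, the mean over a marker list of log2 CPM (counts per 1000000 read pairs, after TMM scaling of the library sizes), set 6 mice apart. For smooth muscle, 3 mice of 3 mo and 2 mice of 9 mo scored from 6.96 to 7.95, against a mean of 9.25 ± 0.254 (SD, n = 18) at 28 mo, and 1 mouse of 15 mo had an epithelium score of 9.22, the lowest of all. The age tests of the sirtuins, their pairs and their relations with marker scores were therefore also run without these 6 mice, and calls that changed are given. The other gene lists are given for all 83 mice.

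The 7 genes lie at 7 loci on 5 chromosomes of GRCm38. Sirt1 (ENSMUSG00000020063) occupies chr10:63319005-63381704 on the minus strand and Sirt6 (ENSMUSG00000034748) chr10:81621785-81627797, also on the minus strand. Sirt2 (ENSMUSG00000015149) is on the plus strand at chr7:28766735-28788661, and Sirt3 (ENSMUSG00000025486) on the minus strand of the same chromosome at chr7:140863666-140882309. Sirt4 (ENSMUSG00000029524) lies at chr5:115478010-115484725, minus strand. Sirt5 (ENSMUSG00000054021) lies at chr13:43365496-43395203, plus strand, and Sirt7 (ENSMUSG00000025138) at chr11:120618372-120625240, minus strand. Exons of Sirt7 share 124 bp with exons of Mafg on the same strand, so reads in that stretch cannot be assigned to either gene from the counts. Exons of Sirt2 and Sirt3 are overlapped only from the opposite strand by other protein-coding genes, which a stranded library separates.

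Levels of different genes were compared as TPM (transcripts per 1000000), which corrects for gene length, here the merged length of all annotated exons. Sirt7, the nucleolar sirtuin that acts on ribosomal gene transcription and on histones, had the highest level (46.6 ± 3.29 TPM, SD, n = 83). It was followed by Sirt2, a deacetylase of tubulin and other cytosolic proteins (29.1 ± 1.87 TPM), and by Sirt6, a histone deacetylase of DNA repair and telomeric chromatin (21.7 ± 1.95 TPM). Sirt4, a mitochondrial enzyme that restrains glutamate dehydrogenase, had 14.6 ± 1.46 TPM. Sirt1, which deacetylates histones and transcription factors such as p53 and the FOXO proteins, had 13.1 ± 1.88 TPM, and Sirt3, the main mitochondrial deacetylase, 10.6 ± 0.826 TPM. Sirt5, which removes succinyl, malonyl and glutaryl groups from mitochondrial enzymes, was lowest (4.3 ± 0.426 TPM).

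This order of means was the same at each of the 5 ages and in each of the 3 library batches. The order was taken from the same mice, so the pairs of neighbours were chosen on the values then tested. Neighbours were compared within mice by a two-sided sign-flip permutation test. Its adjusted p was 1e-05 for each of the 6 pairs, which is the smallest that 100000 resamples can give. For 4 of these pairs the higher gene was higher in 83 of 83 mice. Sirt4 exceeded Sirt1 in 66 of 83 mice (mean difference 0.17 ± 0.26 log2 TPM, SD), and Sirt1 exceeded Sirt3 in 74 of 83 (0.30 ± 0.23 log2 TPM), so that their order is not the same in every mouse. At 28 mo, Sirt1 exceeded Sirt3 in 18 of 18 mice, and at 3 mo in 12 of 16. All of these comparisons take the merged exon lengths as given. With the length of the longest annotated transcript in their place, Sirt3 (15.6 ± 1.20 TPM, SD) came before Sirt4 (15.5 ± 1.53 TPM) and Sirt1 (12.5 ± 1.78 TPM), with Sirt3 above Sirt4 in 43 of 83 mice, so the order of Sirt1, Sirt3 and Sirt4 is not settled by these counts. Sirt7 (58.0 ± 3.97 TPM) and Sirt2 (54.7 ± 3.41 TPM) then lay closer together, with Sirt7 higher in 66 of 83 mice. The places of Sirt7, Sirt2, Sirt6 and Sirt5 in the order were the same with both lengths.

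Summed over the family, the level was 140 ± 7 TPM (SD, n = 83), with mice between 122 and 156 TPM. The nuclear members made up 58.2% ± 1.28 of that sum, Sirt2 20.8% ± 0.889 and the mitochondrial members 21.1% ± 1.01. With the longest transcripts as lengths these portions were 50.4% ± 1.30, 28.8% ± 1.10 and 20.9% ± 0.949. By age, with merged exons, the mean nuclear portion lay between 57.9% and 58.8% and the mean mitochondrial portion between 20.8% and 21.4%, with SDs among mice of 1 age of 0.758 to 1.55 for the nuclear and 0.625 to 1.15 for the mitochondrial portion.

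**Figure D1:**
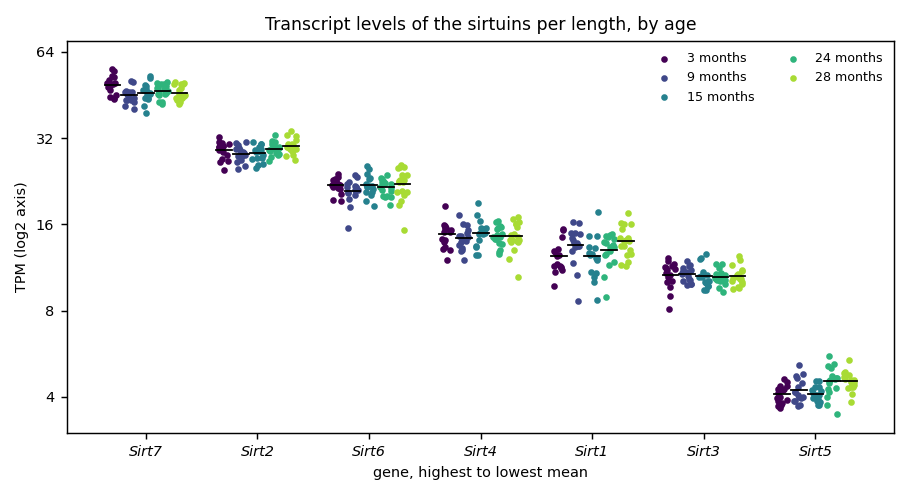
Levels of the 7 sirtuins in TPM from merged exon lengths (log2 axis), ordered from the highest to the lowest mean. Each point is 1 of 83 mice, coloured by age, and black lines are means of the age groups. Sirt7 stands at the top with means of 45.1 to 49.2 TPM and Sirt5 at the bottom with means of 4.08 to 4.53 TPM, while Sirt4, Sirt1 and Sirt3 overlap.

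Across life, 3 of the 7 sirtuins changed and each by a small amount. From 3 mo to 28 mo, Sirt1 rose to 1.12 times and Sirt5 to 1.09 times its level, and Sirt7 fell to 0.916 times its level. Sirt2, Sirt3, Sirt4 and Sirt6 did not pass the test of the edgeR fit in any of the comparisons made. The same 3 genes were called for a difference of any kind among the 5 ages at an adjusted p of 0.1 (quasi-likelihood test of edgeR, adjusted after Benjamini and Hochberg over all tested genes), a test that called 54.9% of all genes in this colon. Its adjusted p was 0.00953 for Sirt5 (0.00495 to 0.0328 over 9 alternatives), 0.00953 for Sirt7 (0.00195 to 0.203) and 0.0741 for Sirt1 (0.00859 to 0.114). Between 3 mo and 28 mo, where these 3 were called as well, 49.4% of all genes were called, so neither count is above the background. The median log2 change of the 7 from 3 mo to 28 mo was -0.013, and that of all genes -0.0087.

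For a straight line in age, 2 sirtuins were called, Sirt5 upward and Sirt7 downward, against 53.2% of all genes. For a departure from the line, edgeR and DESeq2 called 0 of the 7, with 2 (Sirt1 and Sirt7) at an unadjusted p under 0.05 in edgeR, and 16.2% of all genes were called. Of the 4 steps between neighbouring ages, only the first held a call in the edgeR fit. From 3 mo to 9 mo, Sirt7 was called lower (8.69% of all genes called). From 9 mo to 15 mo edgeR and DESeq2 called 0 sirtuins, 0 were under an unadjusted p of 0.05 in edgeR, and 0.431% of all genes were called. From 15 mo to 24 mo edgeR called 0 (1 at an unadjusted p under 0.05, and 1 called by DESeq2, Sirt5 in both cases) while 13.5% of all genes were called. From 24 mo to 28 mo edgeR and DESeq2 called 0, with 0 at an unadjusted p under 0.05 in edgeR and 11.7% of all genes called.

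**Figure D2:**
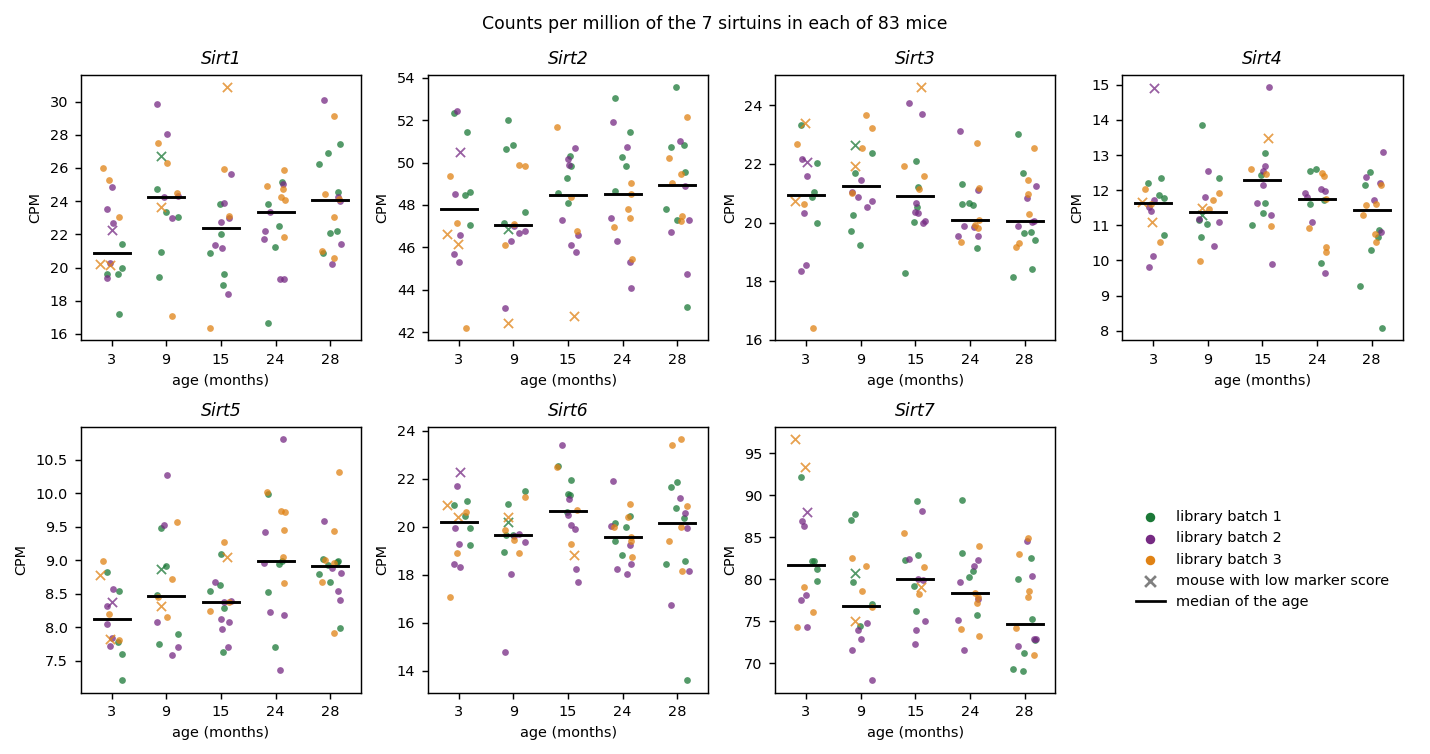
Normalised expression (CPM, linear axes that do not start at 0) of each sirtuin in each of the 83 mice against age in months. Points are mice coloured by library batch, crosses are the 6 mice with a low marker score, and black lines are medians. The median of Sirt5 went from 8.12 CPM at 3 mo to 8.91 CPM at 28 mo and that of Sirt7 from 81.7 to 74.7 CPM, and the mice of the youngest and the oldest group overlap for every gene.

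Among the nuclear members, Sirt7 fell. At 3 mo its lowest, median and highest mouse had 74.3, 81.7 and 96.7 CPM, and at 9 mo 68.0, 76.9 and 87.7 CPM. At 15 mo the values were 72.3, 80.0 and 89.3 CPM, at 24 mo 71.6, 78.3 and 89.4 CPM, and at 28 mo 69.0, 74.7 and 84.9 CPM. The groups overlap throughout, but 14 of 18 mice of 28 mo lay below the median of the 3 mo mice and 9 of 18 below their lowest mouse. The fitted change from 3 mo to 28 mo was -0.13 log2 units (95% confidence interval -0.19 to -0.06, adjusted p = 0.00131, edgeR), and it was -0.14, -0.09 and -0.10 when batches 1, 2 and 3 were fitted alone. Most of it was already there at 9 mo (-0.10, -0.17 to -0.03, adjusted p = 0.0687). Later steps were +0.06 to 15 mo, -0.03 to 24 mo and -0.05 to 28 mo, none of which passed the test.

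Sirt7 was high in the mice of 3 mo whose libraries held little smooth muscle RNA, but not in those of 9 mo. The 3 mice of 3 mo with a low smooth muscle score had 96.7, 87.9 and 93.3 CPM of Sirt7, the first of which is the highest of all 83 mice, and the 2 mice of 9 mo with a low score had 80.7 and 75.04 CPM, on either side of their group's median. The smooth muscle score ran from 6.96 to 9.74 at 3 mo and from 8.64 to 9.58 at 28 mo, and 0 of its 6 markers were called between these ages by edgeR. The epithelium score ran from 9.79 to 10.1 at 3 mo and from 9.62 to 9.97 at 28 mo, with 3 of 6 markers called lower. Without the 6 mice with a low marker score, the change from 3 mo to 28 mo was -0.08 (adjusted p = 0.0613, still called), the change from 3 mo to 9 mo -0.05 (adjusted p = 0.506) and the test for any difference gave an adjusted p of 0.203. With the epithelium and smooth muscle scores as covariates, the change from 3 mo to 28 mo was -0.07 (adjusted p = 0.0553), that from 3 mo to 9 mo -0.08 (adjusted p = 0.123), and the slope lost its call (adjusted p = 0.384). Over all alternatives to the edgeR fit, the adjusted p of the change from 3 mo to 28 mo lay between 0.000276 and 0.0613, and that of the change from 3 mo to 9 mo between 0.0527 and 0.506.

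After removal of age and batch, 5 of 98 relations between a sirtuin and a marker score were called by both measures over the 83 mice, a set of relations chosen after the data were seen. Of these, 3 were of Sirt7. With the epithelium score it gave r = 0.399 (permutation p = 5e-05, adjusted p = 0.00163) and rho = 0.521 (permutation p = 1e-05, adjusted p = 0.00098), with 0.504 without the 2 mice farthest from the median score and 0.497, 0.394 and 0.413 within batches. With the score of absorptive colonocytes, the cells that take up water and salts, it gave r = 0.331 (permutation p = 0.00214, adjusted p = 0.0262) and rho = 0.327 (permutation p = 0.00279, adjusted p = 0.0684), with 0.321 without 2 mice and 0.374, 0.321 and 0.320 within batches. With the enteric neuron score it gave r = -0.390 (permutation p = 0.00024, adjusted p = 0.00588) and rho = -0.321 (permutation p = 0.00352, adjusted p = 0.069), with -0.360 without 2 mice and -0.128, -0.425 and -0.573 within batches. The colonocyte score ran from 9.59 to 10.1 at 3 mo and from 9.45 to 9.87 at 28 mo, with 1 of 6 markers called lower, and the neuron score from 1.45 to 3.59 and from 1.89 to 3.16, with 1 of 5 called lower. Of 6 further relations called by r alone, 2 were of Sirt7, with smooth muscle (r = -0.345, permutation p = 0.00125, adjusted p = 0.0175; rho = -0.242, permutation p = 0.028, adjusted p = 0.258; 0.032, -0.388 and -0.581 within batches) and with enteric glia (r = -0.351, permutation p = 0.00107, adjusted p = 0.0175; rho = -0.275, permutation p = 0.0118, adjusted p = 0.166). Without the 6 mice with a low marker score, the relation of Sirt7 with epithelium was called by both measures (r = 0.474, permutation p = 2e-05, adjusted p = 0.00196, n = 77). Those with colonocytes (r = 0.297, permutation p = 0.00846, adjusted p = 0.138), neurons (-0.255, permutation p = 0.0255, adjusted p = 0.277), smooth muscle (-0.153, permutation p = 0.184, adjusted p = 0.547) and glia (-0.183, permutation p = 0.111, adjusted p = 0.526) then missed the threshold. The part of the colonocyte, neuron and glia markers in the fall of Sirt7 was not tested. In tissue RNA, fewer cells of a type and less RNA per cell cannot be told apart.

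Sirt1 rose, with a wider spread among mice than any other member (residual SD 0.183 log2 CPM after age and batch). At 3 mo its lowest, median and highest mouse had 17.2, 20.9 and 26 CPM, and at 9 mo 17.1, 24.3 and 29.9 CPM. At 15 mo they had 16.3, 22.4 and 30.9 CPM, at 24 mo 16.7, 23.4 and 25.9 CPM, and at 28 mo 20.2, 24.1 and 30.1 CPM. The ranges overlap, 16 of 18 mice of 28 mo lay above the 3 mo median, and the highest of all mice was the 15 mo mouse with the low epithelium score. From 3 mo to 28 mo the change was +0.16 log2 units (0.04 to 0.29, adjusted p = 0.0289, edgeR), with +0.34 in batch 1, +0.13 in batch 2 and +0.05 in batch 3. The change from 3 mo to 9 mo was +0.17 (0.04 to 0.30, adjusted p = 0.105), that from 9 mo to 15 mo -0.11 (-0.24 to 0.01, adjusted p = 0.595) and the slope per month 0.00318 ± 0.0022 (SE, adjusted p = 0.237). With the epithelium and smooth muscle scores as covariates the change from 3 mo to 28 mo was +0.10 and lost its call (adjusted p = 0.193), while the change from 3 mo to 9 mo was called (adjusted p = 0.0582). Over all alternatives the adjusted p ran from 0.00345 to 0.193 for the former and from 0.0582 to 0.29 for the latter, and it was 0.0604 for the former without the 6 mice with a low marker score.

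Sirt1 also ran against the score of goblet cells, the mucus-secreting cells of the epithelium. The goblet score was 11.6 ± 0.145 at 3 mo, 11.8 ± 0.267 at 15 mo and 11.3 ± 0.194 at 28 mo (SD), with ranges of 11.4 to 11.9 at 3 mo and 10.9 to 11.7 at 28 mo, and 4 of its 5 markers were called lower and 1 higher from 3 mo to 28 mo. After removal of age and batch, Sirt1 and this score gave r = -0.476 (permutation p = 2e-05, adjusted p = 0.00163) and rho = -0.393 (permutation p = 0.00028, adjusted p = 0.00915) over 83 mice. The value of r was -0.381 without the 2 mice farthest from the median score, and -0.382, -0.287 and -0.643 within batches. Sirt1 and the epithelium score gave r = -0.454 (permutation p = 4e-05, adjusted p = 0.00163) and rho = -0.426 (permutation p = 7e-05, adjusted p = 0.00343), with -0.466 without 2 mice and -0.587, -0.236 and -0.512 within batches. These are the other 2 of the 5 relations called by both measures, and both were called by both measures without the 6 mice with a low marker score. The macrophage score gave r = -0.353 (permutation p = 0.00123, adjusted p = 0.0175) and rho = -0.280 (permutation p = 0.0104, adjusted p = 0.166) with Sirt1, and without the 6 mice it was called by both measures (r = -0.376, permutation p = 0.00087, adjusted p = 0.0223; rho = -0.337, permutation p = 0.0026, adjusted p = 0.0637). Fibroblast and endothelium scores were called with Sirt1 by r alone (-0.314 and -0.320, adjusted p = 0.0386 and 0.0383, permutation test), and neither was without the 6 mice. From 3 mo to 28 mo, 4 of 5 macrophage and 3 of 4 endothelium markers were called higher and 0 lower, unlike the goblet markers. Of 4 fibroblast markers, 1 was called higher and 2 lower. The remaining relation called by r alone was that of Sirt2 with endothelium (0.299, adjusted p = 0.0573, permutation test), with 0.205 (adjusted p = 0.476) without the 6 mice. The part of the goblet, macrophage, fibroblast and endothelium markers in the change of Sirt1 was not tested. Sirt1 and Sirt7 were also related to a GC balance of expression that is defined below (r = -0.680 and 0.467). Their relations with marker scores were not computed with that balance removed.

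Sirt6 did not pass the test. Its medians were 20.2, 19.7, 20.6, 19.6 and 20.2 CPM from the youngest to the oldest group, and 9 of 18 mice of 28 mo lay above the 3 mo median. The change from 3 mo to 28 mo was -0.01 and kept its sign under 6 of 10 alternatives (95% confidence interval -0.10 to 0.07, adjusted p = 0.836, edgeR), an interval that includes small changes in both directions. Its largest step was +0.09 from 9 mo to 15 mo (-0.00103 to 0.17, adjusted p = 0.548).

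Sirt2, the cytosolic member, was the steadiest of the 7. Its medians were 47.8, 47.1, 48.5, 48.5 and 49.0 CPM, all mice lay between 42.2 and 53.6 CPM, and the residual SD among mice was 0.0727 log2 CPM. The change from 3 mo to 28 mo was +0.02 with an interval of -0.03 to 0.07 (adjusted p = 0.603, edgeR). That interval is the narrowest in the family and does not reach the changes estimated for Sirt1, Sirt5 or Sirt7 in size.

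Of the mitochondrial members, Sirt5 rose and did so with the most stable call. Its lowest, median and highest mouse had 7.21, 8.12 and 8.99 CPM at 3 mo and 7.59, 8.47 and 10.3 CPM at 9 mo. They had 7.63, 8.38 and 9.28 CPM at 15 mo, 7.36, 9.00 and 10.8 CPM at 24 mo, and 7.91, 8.91 and 10.3 CPM at 28 mo. The groups overlap, with 16 of 18 mice of 28 mo above the 3 mo median and 5 of 18 above the highest 3 mo mouse. The change from 3 mo to 28 mo was +0.12 log2 units (0.04 to 0.20, adjusted p = 0.00894, edgeR), and it was +0.16, +0.13 and +0.12 in batches 1, 2 and 3. The slope was 0.00495 ± 0.00137 log2 units per month (SE, adjusted p = 0.002). The largest step, from 15 mo to 24 mo, was +0.10 (0.02 to 0.18) and missed the threshold (adjusted p = 0.102, between 0.0837 and 0.199 over the alternatives). The call from 3 mo to 28 mo held under 10 of 10 alternatives (adjusted p 0.00514 to 0.0321), also with the marker scores as covariates and without the mice with a low marker score. Sirt5 was also the least counted member (192 to 659 read pairs per mouse). Counting error alone amounts to an SD of 0.0831 log2 units (root mean square over the mice), against a residual SD of 0.107.

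Sirt3 and Sirt4 had negative estimates whose intervals include 0. Sirt3 had medians of 20.9, 21.3, 20.9, 20.1 and 20.0 CPM from 3 mo to 28 mo and a change of -0.04 (-0.11 to 0.03, adjusted p = 0.377, edgeR). Its slope of -0.00241 ± 0.00125 log2 units per month was just outside the threshold (adjusted p = 0.106, between 0.0907 and 0.288 over the alternatives). Sirt4 had medians of 11.6, 11.4, 12.3, 11.7 and 11.4 CPM and a change of -0.04 (-0.14 to 0.05, adjusted p = 0.492, edgeR). After batch was fitted, age explained 19.0% of the total variance of log2 CPM for Sirt5, 18.0% for Sirt7 and 11.1% for Sirt1. It explained between 2.86% and 8.74% for the other members, so most of the variation among mice lay within an age for every sirtuin.

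**Figure D3:**
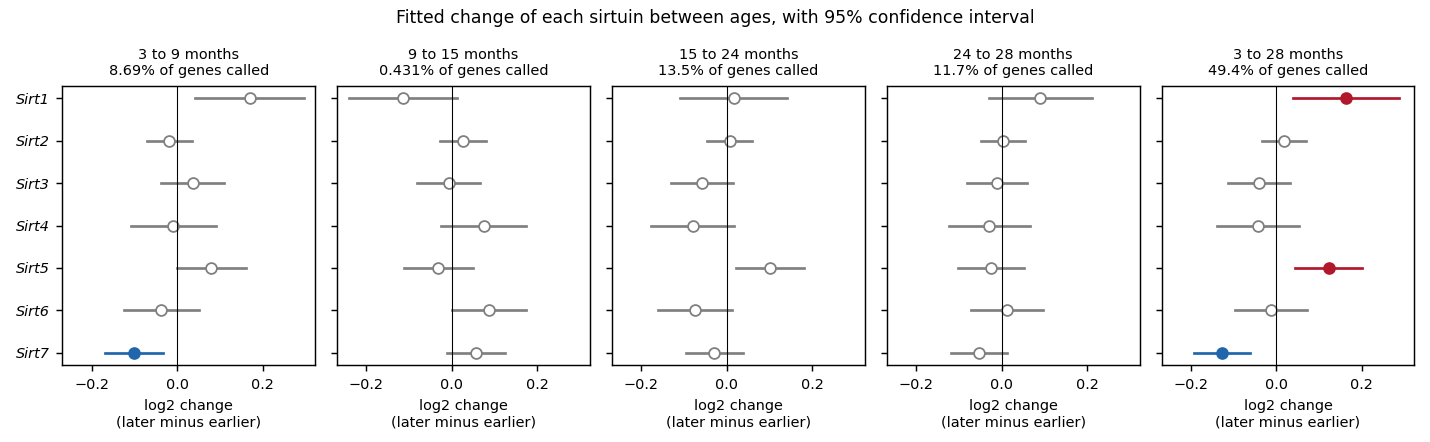
Fitted log2 change of each sirtuin (later minus earlier age) for 4 neighbouring pairs of ages and for 3 mo to 28 mo, with 95% confidence intervals from the edgeR fit of all 83 mice. Red marks called higher, blue called lower and open grey not called at an adjusted p of 0.1, and each title gives the percentage of all genes called. Calls appear for Sirt7 in the first panel and for Sirt1 and Sirt5 (higher) and Sirt7 (lower) in the last.

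Within ages, many pairs of sirtuins were correlated. The portion of pairs of other genes that would pass the same test was not computed, so the counts cannot be read as a trait of the family. After removal of age and batch means, 16 of the 21 pairs of members had a correlation over the 83 mice with an adjusted p below 0.1 (permutation test, two-sided, 100000 resamples, adjusted after Benjamini and Hochberg over the 21 pairs), by Pearson's r and by Spearman's rho alike. Of these, 12 were positive and 4 negative, the negative ones being those of Sirt1 with Sirt2, Sirt3, Sirt6 and Sirt7. Without the 6 mice with a low marker score these 16 pairs were called by r, and so was Sirt1 with Sirt4 (r = -0.246, adjusted p = 0.0434, against -0.174 and 0.143 in all mice, permutation test). Sirt1 and Sirt7 ran against each other (r = -0.471, permutation p = 1e-05, adjusted p = 0.000105; rho = -0.488, permutation p = 2e-05, adjusted p = 0.00014). The value of r was -0.471 without the 2 mice farthest from the median of Sirt1, and -0.511, -0.510 and -0.419 within the batches. Sirt1 and Sirt6 gave r = -0.427 (permutation p = 0.00012, adjusted p = 0.000504) and rho = -0.420 (permutation p = 0.00011, adjusted p = 0.000577), with -0.470 without 2 mice and -0.368, -0.448 and -0.492 within batches.

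The positive pairs with the largest r were Sirt2 with Sirt4, Sirt2 with Sirt6 and Sirt3 with Sirt4. Sirt2 and Sirt4 gave r = 0.514 and rho = 0.490 (permutation p = 1e-05 and adjusted p = 0.000105 for both), with r = 0.432 without 2 mice and 0.716, 0.488 and 0.312 within batches. Sirt2 and Sirt6 gave r = 0.482 (permutation p = 2e-05, adjusted p = 0.000105) and rho = 0.412 (permutation p = 0.00016, adjusted p = 0.000672), with 0.410 without 2 mice and 0.618, 0.596 and 0.198 within batches. Sirt3 and Sirt4 gave r = 0.468 (permutation p = 2e-05, adjusted p = 0.000105) and rho = 0.471 (permutation p = 1e-05, adjusted p = 0.000105), with 0.458 without 2 mice and 0.455, 0.494 and 0.524 within batches. Sirt5 and Sirt7, which changed in opposite directions with age, showed no relation past the threshold within ages (r = -0.024, permutation p = 0.828, adjusted p = 0.828; rho = -0.025, permutation p = 0.822, adjusted p = 0.822).

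Many of these correlations were weaker once a GC balance was removed, a contrast of expression between genes with GC-rich and GC-poor transcripts. Whether that balance reflects the libraries or the tissue was not tested. A GC balance was computed for each mouse as the mean centred log2 CPM of the 4575 tested genes with at least 54.2% GC in their longest transcript, minus that of the 4575 genes with at most 44.8%. Its means at the 5 ages lay between -0.0174 and 0.016, against SDs of 0.0909 to 0.145 among mice of 1 age. Sirt1, whose longest transcript has 44.0% GC, ran against this balance (r = -0.680 and rho = -0.621, permutation p = 1e-05 for both, adjusted p = 1.75e-05 and 2.33e-05, over 83 mice, 7 relations tested). Without the 2 mice farthest from its median, r was -0.677, and it was -0.723, -0.567 and -0.755 within batches. Sirt2 (54.2% GC) ran with the balance (r = 0.645, rho = 0.533, permutation p = 1e-05 for both, adjusted p = 1.75e-05 and 2.33e-05), with r = 0.546 without 2 mice and 0.599, 0.669 and 0.727 within batches. Sirt7 (55.6% GC) had r = 0.467 and rho = 0.547 (permutation p = 1e-05 for both, adjusted p = 1.75e-05 and 2.33e-05), with 0.512 without 2 mice and 0.556, 0.537 and 0.327 within batches.

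Sirt6 (58.4% GC) had r = 0.542 (permutation p = 1e-05, adjusted p = 1.75e-05) but rho = 0.314 (permutation p = 0.004, adjusted p = 0.007) and r = 0.343 without 2 mice, so that a part of its r rests on those mice. Its within-batch values were 0.691, 0.617 and 0.295. Sirt4 (53.5% GC) had r = 0.331 (permutation p = 0.00314, adjusted p = 0.0044) and rho = 0.213 (permutation p = 0.053, adjusted p = 0.0742), with 0.249 without 2 mice and 0.598, 0.228 and -0.0123 within batches. For Sirt3 (46.4% GC) and Sirt5 (47.4% GC) the relation did not pass the threshold. Sirt3 had r = 0.129 (permutation p = 0.242, adjusted p = 0.282) and rho = 0.179 (permutation p = 0.105, adjusted p = 0.123), and Sirt5 had the smallest values of the 7 (r = -0.030, permutation p = 0.792, adjusted p = 0.792; rho = -0.109, permutation p = 0.323, adjusted p = 0.323). When the balance was removed together with age and batch, 9 of the 21 pairs were under the threshold. Of these, 8 (7 positive and 1 negative) were among the 16 found before, and the pair Sirt2 and Sirt5 was called only after removal (r = 0.227, permutation p = 0.0393, adjusted p = 0.0918). The pair Sirt1 and Sirt7 went to r = -0.237 (permutation p = 0.0309, adjusted p = 0.0812), and Sirt1 and Sirt2 went from -0.413 to 0.046 (permutation p = 0.682, adjusted p = 0.753). Sirt2 and Sirt6 went to 0.205 (permutation p = 0.0625, adjusted p = 0.12). Sirt3 and Sirt4 (r = 0.455, permutation p = 1e-05, adjusted p = 0.00021) and Sirt2 and Sirt4 (r = 0.416, permutation p = 0.00011, adjusted p = 0.00115) kept values close to those before. With the balance as a covariate in the edgeR fit, the changes from 3 mo to 28 mo were +0.16 for Sirt1, +0.12 for Sirt5 and -0.13 for Sirt7, as large as without it.

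**Figure D4:**
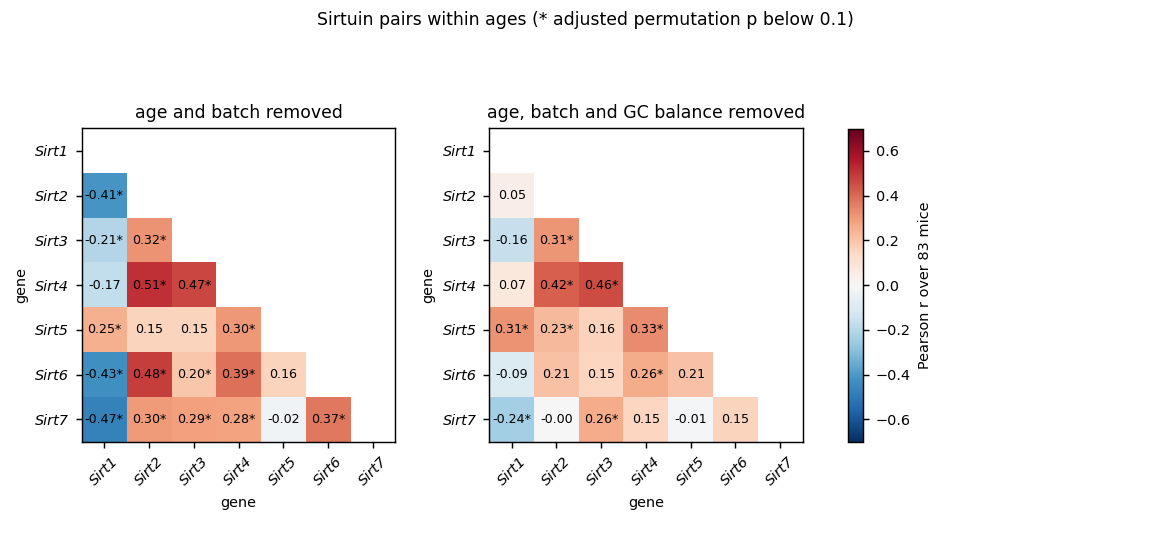
Pearson correlation of log2 CPM over 83 mice for the 21 pairs of sirtuins, after removal of age and batch (left) and of age, batch and GC balance (right). Colour runs from blue (negative) to red (positive) and asterisks mark an adjusted permutation p below 0.1, which 16 pairs reach on the left and 9 on the right, where the blue column of Sirt1 has mostly faded.

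The genes outside the family whose residuals were most like those of a sirtuin, by Pearson's r over the 83 mice, were named 2 per member. For Sirt1 they were Kmt5b (r = 0.841), a histone methyltransferase, and Epc2 (r = 0.825), a subunit of a histone acetyltransferase complex, the closest likeness found for any member. For Sirt7 they were Hmg20b (r = 0.753) and Gpr137 (r = 0.745), and for Sirt6 Scaf1 (r = 0.668) and Llgl1 (r = 0.666). Sirt2 and Sirt4 shared Btbd2 as the most alike gene (r = 0.684 and 0.636), followed by Dlgap4 (r = 0.644) and Zfp688 (r = 0.618). Sirt3 was most like Vstm5 (r = 0.610) and Zdhhc1 (r = 0.559), and Sirt5 was most like Gtpbp8 (r = 0.536) and Jpx (r = 0.535). These likenesses come from the same libraries as the pairs above, and the GC balance was not removed from them.

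NAD+, which sirtuins consume, is made from nicotinamide, nicotinic acid and tryptophan. Of 17 genes of NAD synthesis 15 were tested, and from 3 mo to 28 mo 5 were called higher and 4 lower, with a median log2 change of 0.0027. Nmnat2 and Nmnat3, which join the nucleotide to ATP in the last step, rose by 0.77 (95% confidence interval 0.59 to 0.95) and by 0.42 (0.28 to 0.56), with adjusted p = 1.15e-10 and 8.16e-07 in edgeR. Nmnat2 had 2.31 ± 0.596 CPM (SD) at 3 mo and 3.95 ± 0.791 CPM at 28 mo. Qprt, of the route from tryptophan, rose by 0.59 from 0.359 ± 0.111 to 0.537 ± 0.199 CPM (adjusted p = 0.00189, edgeR). In the same route, Kmo fell by 0.67 (adjusted p = 0.000188) and Tdo2 fell by 0.52 (adjusted p = 0.0484), both from under 3 CPM, and Nadsyn1, the NAD synthetase, fell by 0.11 (adjusted p = 0.013). Nampt, the rate-limiting enzyme of salvage from nicotinamide, is named outside the rule for naming genes and after its value was seen; it rose by 0.14 (0.05 to 0.23, adjusted p = 0.0123, edgeR) from 115 ± 10.4 to 125 ± 11.5 CPM.

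Among 14 genes that use NAD or clear nicotinamide, 3 were called higher and 4 lower from 3 mo to 28 mo, with a median of 0.0029. Parp3, a poly(ADP-ribose) polymerase family member of DNA repair, rose from 27.5 ± 2.99 to 51.0 ± 5.03 CPM, by 0.89 log2 units (0.79 to 0.99, adjusted p = 1.28e-27, edgeR). Parp1, the main enzyme of that family, fell by 0.22 (adjusted p = 2.47e-05), and Cd38, an NAD glycohydrolase, fell by 0.31 (adjusted p = 0.00692) from 213 ± 85.9 to 170 ± 15.8 CPM. Aox1, an aldehyde oxidase that clears nicotinamide metabolites, rose by 0.63 (adjusted p = 2.09e-06). The NAD kinases differed in sign, with +0.12 for the mitochondrial Nadk2 (adjusted p = 0.0122) and -0.09 for Nadk (adjusted p = 0.023).

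Of 14 genes for proteins on which nuclear and cytosolic sirtuins act, 2 were called higher and 4 lower from 3 mo to 28 mo (median -0.027). Hif1a, the oxygen-regulated transcription factor, fell by 0.41 (adjusted p = 0.000343, edgeR) and Xrcc6, the Ku70 protein of DNA end joining, fell by 0.15 (adjusted p = 0.00657). Srebf1, a factor of lipid synthesis, rose by 0.15 (adjusted p = 0.0942) and G6pdx, of the pentose phosphate pathway, rose by 0.12 (adjusted p = 0.0243), whereas the bile acid receptor Nr1h4 had -0.08 (adjusted p = 0.207). Of 17 genes for substrates of mitochondrial sirtuins, 2 were called higher and 4 lower (median -0.024). Cps1, the urea cycle enzyme known as a Sirt5 substrate, fell by 1.65 (adjusted p = 0.000663) from 5.05 ± 2.95 to 1.77 ± 1.54 CPM. Otc, the next enzyme of that cycle, rose by 0.19 (adjusted p = 0.000542), and Acadl, of fatty acid oxidation, rose by 0.14 (adjusted p = 0.00165). Mlycd, malonyl-CoA decarboxylase, fell by 0.10 (adjusted p = 0.0288) and Sod2, the mitochondrial superoxide dismutase, fell by 0.08 (adjusted p = 0.0103), while Glud1, a target of Sirt4, had +0.05 (adjusted p = 0.181).

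Of 3 genes for regulators of SIRT1, Rps19bp1, which encodes an activator of SIRT1, fell by 0.23 (adjusted p = 0.000854, edgeR), and Hic1, which encodes a repressor of Sirt1 transcription, rose by 0.18 (adjusted p = 0.0903). Ccar2, whose protein inhibits SIRT1, had -0.02 (-0.08 to 0.03, adjusted p = 0.537). The lists held called genes in both directions, and the portion of each list called from 3 mo to 28 mo is to be read against 49.4% of all genes.

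**Figure D5:**
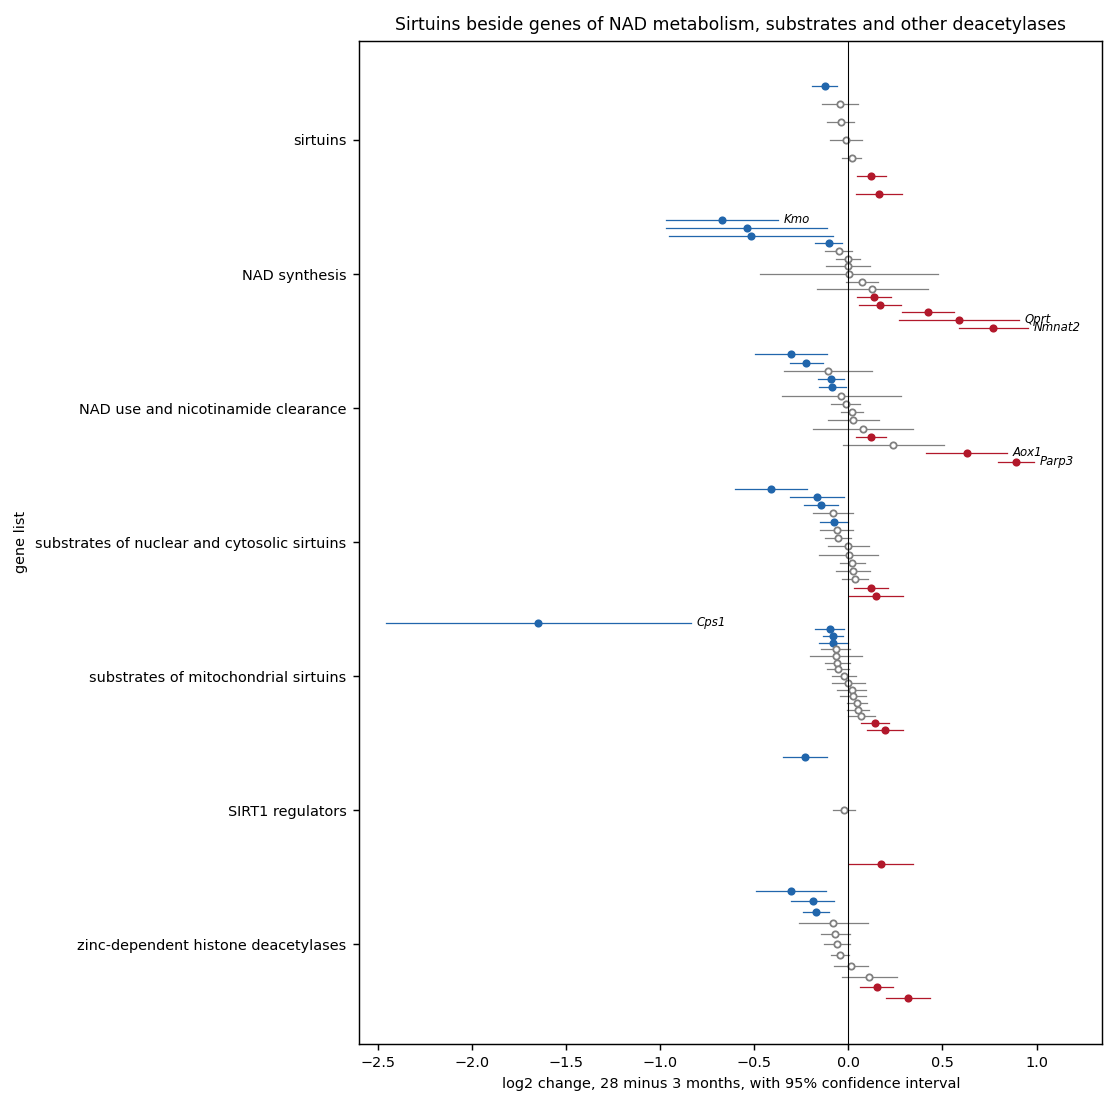
Log2 change from 3 mo to 28 mo with 95% confidence interval for the sirtuins and 6 lists of related genes. Each point is 1 gene, red called higher, blue called lower and open grey not called by edgeR at an adjusted p of 0.1. The 7 sirtuins lie between -0.13 and 0.16, while single genes of NAD metabolism such as Parp3 (0.89), Nmnat2 (0.77) and Kmo (-0.67) lie farther from 0.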

How the data were processed

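The deposited counts are whole read pairs per gene, 1 library per mouse. Per the methods and processing notes of the study, the authors trimmed adapters from polyA-selected, stranded 100 bp paired-end reads with cutadapt 2.8, aligned them to GRCm38 with HISAT2 2.1.0 and counted them per gene with featureCounts of Subread 2.0.1. The members and all gene lists were chosen with earlier results of these data known. Symbols were matched for 37612 of 37764 identifiers.

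Counts were fitted with edgeR 4.0.16 (glmQLFit and glmQLFTest, TMM scaling, filterByExpr by age, age group and library batch as terms, all 83 mice), with Benjamini-Hochberg adjustment over 18325 genes and a threshold of 0.1. CPM was computed from the counts with TMM scaling, and TPM from the counts and merged exon lengths of the GENCODE annotation of GRCm38. Log2 CPM used a prior count of 2. Genes were named by rule: from each list, up to 3 higher and 3 lower by the change from 3 to 28 months among those called over the 5 ages, and for each sirtuin the 2 most alike genes. On simulated data with 100 genes each changed by 0.25 and 0.5 log2 units from 3 to 28 months, 48 and 73 were called. Only 200 of 18325 genes were changed there, against 49.4% called in the data, so these counts do not describe the power of the main fit. The 649 pairs of libraries of 1 age all differed by more than counting noise (lowest chi-square per gene 10.9).

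Alternatives were DESeq2 1.42.0, its size factors, other filters, no term for batch, a block for the replicate number, marker scores as covariates, only the ages compared and a threshold of 0.05. The GC balance as a covariate, the removal of 6 mice with low marker scores and TPM from the longest transcript of each gene were added after the data were seen. Protein sequences of the sirtuins were not used here.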

Additional observations from a re-analysis of the deposited data

How the results depend on the processing

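The order of levels kept 4 of 7 places with the length of the longest transcript in place of merged exons (Sirt3 went before Sirt4 and Sirt1), and the alternatives fixed earlier did not vary the length. No called change turned direction under any alternative run. Counts of called sirtuins moved as follows. Any difference among ages called 2 in place of 3 with no filter, with no batch term and at an adjusted p below 0.05 (Sirt1 lost) and without the 6 mice with low marker scores (Sirt7 lost). From 3 mo to 28 mo, 2 were called with the marker scores as covariates (Sirt1 lost). From 3 mo to 9 mo, Sirt1 was called in place of Sirt7 with the marker scores and with only the ages compared (Sirt7 at an adjusted p of 0.123 and 0.161). With the marker scores as covariates, the straight line called 1 (Sirt5) in place of 2 and the departure from it 2 (Sirt1 and Sirt7) in place of 0. With the GC balance as a covariate, the straight line called 4 (Sirt1, Sirt3, Sirt5 and Sirt7), the departure 1 (Sirt1), the step from 3 mo to 9 mo 2 (Sirt1 and Sirt7) in place of 1, and that from 15 mo to 24 mo 2 (Sirt5 and Sirt6) in place of 0. Without the 6 mice with low marker scores, the straight line called 1 (Sirt5), the step from 3 mo to 9 mo 0 and that from 15 mo to 24 mo 1 (Sirt5). For the step from 3 mo to 9 mo, DESeq2 called 2 (Sirt1 and Sirt7), and 0 were called with no filter on low counts or at an adjusted p below 0.05. For the step from 15 mo to 24 mo, DESeq2, its size factors in edgeR and a fit without the batch term called 1 each (Sirt5). With the GC balance removed, 9 pairs were correlated in place of 16, of which 8 were among the 16, and without the 6 mice 17 (Sirt1 with Sirt4 added). Without these mice, 4 in place of 5 relations with marker scores were called by both measures, of which 3 were among the 5. Over all genes, calls from 3 mo to 9 mo went from 1593 to 680 without the 6 mice, to 901 with only the ages compared and to 882 with no filter. Those from 9 mo to 15 mo went from 79 to 303 with the marker scores as covariates and to 125 with DESeq2. Those from 15 mo to 24 mo went from 2476 to 1524 with no filter and to 3339 with only the ages compared. Those from 24 mo to 28 mo went from 2139 to 1460 with no filter. For all of these the cause was not tested. Replicate numbers were taken as names only. The mean r of deviations was 0.0115 over 161 pairs of the same number, of which 31 exceeded 0.1. Over 2593 pairs of other numbers it was -0.000428, and 427 exceeded 0.1. With the replicate number as a block, any difference among ages called 2 (Sirt5 and Sirt7, Sirt1 at an adjusted p of 0.114) and 3 mo to 28 mo called 3. Depth limits Sirt5 most, with as few as 192 counts in a mouse.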

Other observations

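The zinc-dependent histone deacetylases are the other family of lysine deacetylases and need no NAD+. All 11 genes were tested, 9 were called over the 5 ages (54.9% of all genes were called in that test), and from 3 mo to 28 mo 2 were called higher and 3 lower (quasi-likelihood test of edgeR, adjusted over all genes, 49.4% of which were called). Hdac11, the only member of class IV, rose by 0.32 log2 units (95% confidence interval 0.20 to 0.43, adjusted p = 9.2e-06) from 38.9 ± 4.95 CPM at 3 mo (SD, n = 16) to 48.8 ± 6.11 CPM at 28 mo (n = 18). Hdac7, of class IIa, rose by 0.15 (adjusted p = 0.00369), and Hdac5 of the same class had +0.11 (-0.04 to 0.26, adjusted p = 0.227). Hdac9, also of class IIa, fell by 0.31 (adjusted p = 0.00572). The paired class I enzymes Hdac1 and Hdac2 fell by 0.19 (adjusted p = 0.00537) and by 0.17 (adjusted p = 4.43e-05), so that Hdac1 went from 176 ± 29.0 to 154 ± 18.3 CPM and Hdac2 from 47.5 ± 4.55 to 42.0 ± 3.04 CPM. The median of the 11 was -0.061, beside -0.0087 for all genes.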
